A study of Homo sapiens with 15 samples.

Results

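SH-SY5Y, a human neuroblastoma cell line without MYCN amplification, was compared with 3 lines known to carry extra copies of the MYCN gene, NGP, BE(2)-C and KELLY. The comparison used 12 of the 15 arrays of the series, 3 per line. The remaining 3 arrays hold SK-N-AS, a line without MYCN amplification but with a mesenchymal expression pattern, and were set aside so that MYCN status was compared among lines of adrenergic type. A gene was taken to separate SH-SY5Y from the amplified lines when its log2 difference was at least 1 with the same sign against each of the 3 lines and the adjusted p-value was below 0.05 in each (limma, Benjamini-Hochberg over all genes). Of the 11788 genes tested, 423 met this rule. Because the rule reads these same contrasts, the differences of the 423 genes describe what was selected and are no independent evidence.

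All 5 lines were grown alike, in DMEM with 10% fetal bovine serum, and no treatment, age or other agent is named for any of them. Cells were counted, then lysed with ERCC synthetic RNAs as an external standard, and 100 ng of their total RNA was labelled for an Affymetrix 3' expression array. SH-SY5Y, titled SHS-Y5Y in the sample names, and BE(2)-C are each a subclone of an older line, so each is 1 clone. The MYCN status of the lines comes from general knowledge of them and not from the sample labels. Replicates are numbered 1 to 3, and nothing says that they came from separate cultures, so the p-values measure only the spread between these arrays. SH-SY5Y is a single line: what belongs to MYCN status and what belongs to this line cannot be told apart.

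MYCN encodes a transcription factor of the MYC family that binds, with its partner MAX, to the E-box sequence CACGTG near the start of genes for growth and metabolism. Neuroblastoma arises from the sympathoadrenal lineage of the neural crest, and amplification of MYCN marks aggressive tumours. Adrenergic neuroblastoma cells keep the sympathetic program of HAND2 and GATA3 and the enzymes of noradrenaline synthesis, while mesenchymal cells resemble neural crest cells and express matrix and motility genes.

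Values are given as scaled intensities, the deposited intensity after each array was brought to a common median of 292 over the tested genes, and genes entered the test if the brightest of the 4 line means was at or above the median probe set, a scaled intensity of about 74.3. Means are followed by the SD over the 3 arrays of a line (n = 3). Differences are in log2 units, SH-SY5Y minus the other line. Arrays of 1 line correlated at 0.993 or more and arrays of different lines at 0.876 or less, over genes. Before scaling, the SH-SY5Y arrays were the dimmest, with a median intensity of 54.4 ± 2.65 against 68.3 ± 1.37 in KELLY, 76.8 ± 2.98 in NGP and 103 ± 0.346 in BE(2)-C. Relative to the ERCC RNAs the median gene of SH-SY5Y lay 0.51 log2 units, or 1.42-fold, below the mean of the amplified lines (SD over the 3 lines 0.445, exact two-sided permutation p = 0.5 over 4 line means, and 0.25 is the smallest p this design can give). In bulk RNA, fewer cells that express a gene and less RNA per cell cannot be told apart. The 3' to 5' log2 difference of the GAPDH control probe sets, a sign of RNA quality, was 0.354 ± 0.0315 in SH-SY5Y, above the 0.181 to 0.239 of the amplified lines, while that of ACTB was 1.1 ± 0.201 and 0.969 to 1.23. The part of array brightness and of RNA quality in the gene results was not tested.

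The adrenergic type of the 4 lines was checked on 10 markers that had a probe set assigned to a single gene. All 10 were above the filter in each of the 4 lines, with summed scaled intensities of 51030 (SH-SY5Y), 33340 (NGP), 38600 (BE(2)-C) and 45760 (KELLY). SK-N-AS summed to 8188, with 5 of the 10 above the filter. Most of that sum was HAND2, at 6510 in SK-N-AS against 7130 to 9830 in the 4 lines. Tyrosine hydroxylase (TH), the first enzyme of noradrenaline synthesis, was nonetheless low in SH-SY5Y (126 ± 19.3) and NGP (120 ± 19.2), near its value in SK-N-AS (127 ± 19.6). The 9 mesenchymal markers added up to between 1045 and 3426 in the 4 lines and to 20510 in SK-N-AS. Of these markers 3 to 5 were above the filter in the 4 lines and all 9 in SK-N-AS. No leukocyte marker passed the filter in any of the 4 lines, and at most 1 endothelial, 1 epithelial and 2 fibroblast markers did.

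SH-SY5Y stood no farther from the amplified lines than they stood from each other. Against NGP 1089 genes were higher and 962 lower in SH-SY5Y (9.24% and 8.16% of the genes tested), against BE(2)-C 1201 and 888 (10.2% and 7.53%), and against KELLY 966 and 928 (8.19% and 7.87%). In all, 17.4%, 17.7% and 16.1% of the genes were called in these 3 contrasts, while the pairs of amplified lines gave 20.5% for NGP and BE(2)-C, 15.2% for NGP and KELLY and 18.6% for BE(2)-C and KELLY. The line means of SH-SY5Y correlated over genes at 0.85 with NGP, 0.874 with BE(2)-C and 0.87 with KELLY, and those of the amplified lines with each other at 0.834 to 0.877. Of the 3892 genes called in at least 1 contrast of SH-SY5Y, 223 were higher than in all 3 amplified lines (1.89% of the genes tested) and 200 were lower (1.7%), which together make 3.59%. Another 86 genes were called in all 3 contrasts with mixed signs. These contrasts share the 3 SH-SY5Y arrays.

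**Figure D1:**
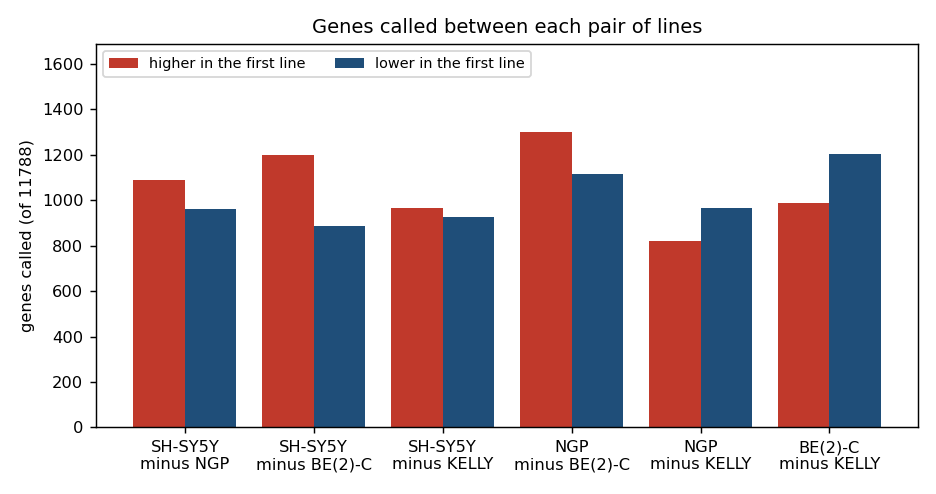
Genes called between each pair of lines (vertical axis, number of the 11788 genes tested; limma adjusted p below 0.05 and a log2 difference of at least 1). The left 3 pairs of bars compare SH-SY5Y with the amplified lines and total 2051, 2089 and 1894 genes, and the right 3 pairs compare the amplified lines with each other and total 2412, 1786 and 2193.

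Most separating genes differed by moderate amounts. The median of the smallest of the 3 differences was 1.45 among the higher genes and -1.41 among the lower genes. A smallest difference of at least 2 was reached by 56 higher and 45 lower genes, and of at least 3 by 15 higher and 18 lower genes. The highest adjusted p among the 423 was 0.00273, and the fold rule without the test selected the same numbers, 223 and 200. In 266 of the 423 the means of the 3 amplified lines lay within 1 log2 unit of each other. The selection edge fell among ordinary genes: DTX3L, a ubiquitin ligase, had a smallest difference of 1.001, LRBA and TACC2 had -1.002, and just outside it EIF5A2 had -0.995, SLC35D3 0.995 and PCOLCE2 -0.992. Leaving out single arrays changed the calls of all 6.

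MYCN itself was among the genes farthest apart. Its scaled intensities in SH-SY5Y were 228, 250 and 158, against 10200, 8938 and 9432 in NGP, 7959, 8630 and 9132 in BE(2)-C and 11490, 11460 and 10900 in KELLY. No SH-SY5Y array came near an amplified one. The differences were -5.51 from NGP, -5.36 from BE(2)-C and -5.76 from KELLY (SE 0.12 each, highest adjusted p 1.22e-14 by limma), at least 41-fold, and all 3 other MYCN probe sets above the filter had the same sign at a difference of 1 or more. SH-SY5Y was still above SK-N-AS, where MYCN had a mean of 43.8 ± 1.48.

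MYC, the paralogue that is the prototype of the family, ran the other way and led the genes higher in SH-SY5Y. Its values in SH-SY5Y were 2385, 2321 and 2529, against 34.7, 27.2 and 28.8 in NGP, 55.2, 42.1 and 53.5 in BE(2)-C and 36.1, 35.6 and 37.9 in KELLY. All 9 amplified arrays were below the filter for MYC, and the smallest difference was 5.57 (SE 0.11, highest adjusted p 2.46e-15 by limma). Against values below the filter the fold is not exact, and with values floored at the median of all values the mean difference was 5.03. SK-N-AS had 1004 ± 30.7. The third paralogue, MYCL, did not separate the lines: it had 108 ± 9.1 in SH-SY5Y, below NGP (232 ± 6.18) and above BE(2)-C (59.4 ± 3.07) and KELLY (40.8 ± 6.42). The list of MYC family members and partners, among them MAX, the MXD repressors, FBXW7 and AURKA, had 20 tested genes. Only MYC and MYCN were called in all 3 contrasts (5% in each direction, against 1.89% and 1.7% of all genes). The median difference of the list from the mean of the amplified lines was -0.03.

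Of 15 tested genes at or around MYCN on chromosome 2, 2 were lower (13.3%, against 1.7% of all genes). A single one was higher (6.67%, against 1.89%). TRIB2, a pseudokinase, was lower along with MYCN, at 665 ± 69.7 in SH-SY5Y against 1963 to 2433 in the amplified lines (differences -1.57 to -1.88). GEN1, a Holliday junction nuclease, was higher, at 262 ± 15.3 against 83 to 110 (smallest difference 1.25), but lost its call on the deposited scale, on ERCC scaling and when a gene's probe sets were averaged. The medians of the 15 were -0.48 against NGP, 0.13 against BE(2)-C, -0.4 against KELLY and -0.15 against the amplified mean. On the deposited scale 4 of the 15 were called lower and with ERCC scaling 3. With BE(2)-C left out, which removes 1 required contrast, 5 were.

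LIN28B, the RNA-binding protein that blocks let-7 maturation, was lower in SH-SY5Y, and so was IGF2BP1, an oncofetal protein that stabilises MYC family mRNAs. LIN28B had 325, 323 and 358 in SH-SY5Y, 879 to 909 in BE(2)-C, 1605 to 1750 in NGP and 1892 to 1927 in KELLY, so that the groups did not overlap. Its smallest difference was -1.42 (SE 0.055, highest adjusted p 6.01e-12 by limma). The LIN28B call was lost without the probe sets marked as able to cross-hybridise. IGF2BP1 had 42.3, 37.2 and 42.7 in SH-SY5Y, close to the 39.5 ± 3 of SK-N-AS, and 696 to 2269 over the amplified arrays, a smallest difference of -4.25. These 2 were the only members of the LIN28 and oncofetal list called among 10 tested (20% lower, against 1.7% of all genes), and the median difference of the list was -0.76.

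The growth programs usually listed as MYC targets were read beside the shares over all genes. None of 34 ribosome biogenesis genes was called in either direction, with a median difference of -0.13. Over all genes 3.59% were called, so a list of this size can hold none at that share. The widest members of the ribosome list were POLR1B and FBL. POLR1B, a subunit of RNA polymerase I, had differences of 0.86 to 1.16. FBL, the fibrillarin methyltransferase, had -0.40 to -0.88. Among 26 nucleotide and one-carbon genes, only ADSL, an enzyme of purine synthesis, was called lower (3.85%, against 1.7% of all genes). ADSL had 2265 ± 303 against 4784 to 5426 (smallest difference -1.08). The list medians were -0.47 against NGP, -0.4 against BE(2)-C, -0.55 against KELLY and -0.49 against the amplified mean. With averaged probe sets 3 genes of the list were called lower and ADSL was not. With arrays on the deposited scale 6 of the 26, and with ERCC scaling 5, were called lower. For cell cycle and E2F targets the median over 37 genes was -0.09. CDKN1C was higher and CDKN1A lower, both inhibitors of cyclin-dependent kinases (2.7% each, against 1.89% and 1.7% of all genes). CDKN1A, a p53 target, had 297, 291 and 334 in SH-SY5Y and 839 to 1342 over the amplified arrays (smallest difference -1.50). No other of 17 p53 targets was called (5.88% lower, against 1.7% of all genes). CDKN1A was not called without the probe sets marked as able to cross-hybridise. CDK4 and MDM2 did not separate the lines: CDK4 stood at 2733 ± 237 in SH-SY5Y and 12670 ± 613 in NGP, and MDM2 at 194 ± 10.6 and 797 ± 66.1, while BE(2)-C and KELLY lay within 0.61 log2 units of SH-SY5Y for both.

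**Figure D2:**
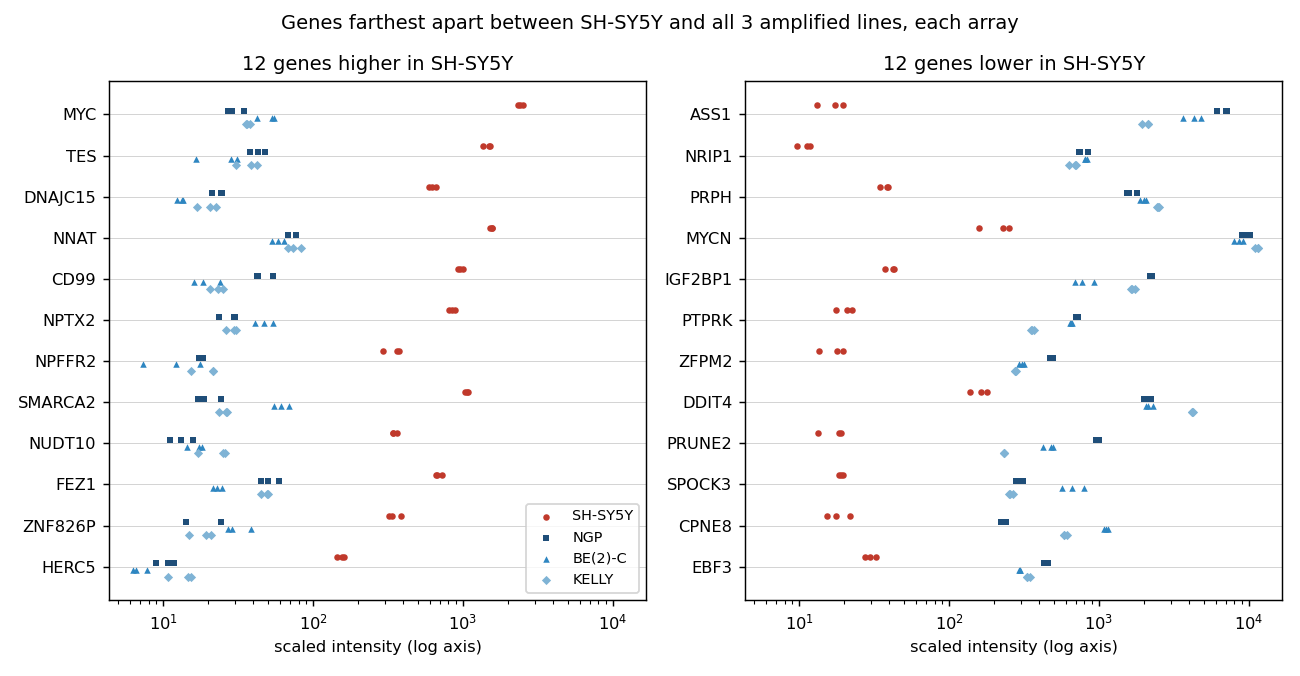
Scaled intensity (horizontal log axis) in each array for the 12 genes higher (left) and 12 lower (right) with the largest smallest difference, coloured by line. For MYC the 3 SH-SY5Y arrays sit between 2321 and 2529 and the 9 amplified arrays between 27.2 and 55.2, and for ASS1 between 13.2 and 19.7 against 1935 to 7161.

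Behind MYC, the largest gaps upward were TES, DNAJC15, NNAT and CD99. TES, a focal adhesion protein regarded as a candidate tumour suppressor, had 1359, 1508 and 1484 in SH-SY5Y and 16.7 to 47.7 over the 9 amplified arrays. Its smallest difference was 5.06 (SE 0.18, highest adjusted p 1.92e-12 by limma). DNAJC15, a mitochondrial co-chaperone, had 663, 618 and 597 against 12.4 to 24.9 (smallest difference 4.68). NNAT, an imprinted proteolipid of developing neurons, had 1513, 1566 and 1555 against 53.6 to 83.4 (4.34). Both also separated on their other probe sets above the filter, 1 of 1 for DNAJC15 and 2 of 2 for NNAT. CD99, a surface glycoprotein used to recognise Ewing sarcoma, had 922, 952 and 1001 against 16.2 to 54.2 (4.34). In SK-N-AS, TES and CD99 were high (1053 ± 28.7 and 3004 ± 77.9) and NNAT was low (51.2 ± 9.51).

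The remaining 7 of the 12 higher genes began with NPTX2. NPTX2, a secreted pentraxin that clusters glutamate receptors, had 843, 811 and 884 in SH-SY5Y, above the 23.7 to 53.8 of the amplified arrays. NPFFR2, the neuropeptide FF receptor, had 294, 376 and 364 against 7.33 to 21.5. SMARCA2, the BRM ATPase of SWI/SNF chromatin remodelling complexes, had 1059, 1036 and 1076 against 17.1 to 69. All 7 other SMARCA2 probe sets above the filter had the same sign at 1 or more. FEZ1, a kinesin adaptor of axonal transport, had 666, 659 and 723 against 21.6 to 59.4, while NUDT10, a diphosphoinositol phosphate hydrolase, had 340, 365 and 342 against 11.1 to 26. The zinc finger pseudogene ZNF826P and HERC5, the ligase for the interferon-induced modifier ISG15, completed the 12, with smallest differences of 3.44 and 3.42. HERC5 reached only 145, 161 and 155 in SH-SY5Y, and with values floored at the median of all values its mean difference dropped from 3.82 to 1.06 and the call was lost. No other of 11 interferon and innate sensing genes tested was called (9.09% higher, against 1.89% of all genes).

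For many of these genes the low side lay where the array measures little. Of the 223 higher genes, 111 were not above the filter in any amplified line, and 99 of the 200 lower genes were not above it in SH-SY5Y. Their fold differences depend on the background and on the pseudocount.

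The largest difference of all was that of ASS1, argininosuccinate synthase, the enzyme that lets cells make arginine from citrulline. SH-SY5Y had 19.7, 13.2 and 17.4, against 6114, 7161 and 7020 in NGP, 4759, 4303 and 3640 in BE(2)-C and 1935, 2109 and 2114 in KELLY. All SH-SY5Y arrays were below the filter and all amplified arrays far above it. The differences were -8.59, -7.91 and -6.87 (SE 0.12, highest adjusted p 1.25e-15 by limma) and -5.66 on average with floored values, and a second probe set had the same sign. SK-N-AS also had high ASS1 (3993 ± 195). A list of arginine and urea cycle genes was drawn up after the values were seen. Of its 8 tested members ASS1 and SLC7A2 were called lower (25%, against 1.7% of all genes). SLC7A2, a transporter of cationic amino acids, had 144 ± 6.6 in SH-SY5Y against 381 to 466 (smallest difference -1.39). The list medians were 0.04 against NGP, -0.1 against BE(2)-C and -0.83 against KELLY. Without the probe sets marked as able to cross-hybridise only 1 gene of the list was called lower.

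NRIP1, a corepressor of nuclear receptors, followed, with 11.3, 11.8 and 9.73 in SH-SY5Y and 634 to 846 over the 9 amplified arrays. Its smallest difference was -5.83 (SE 0.078, highest adjusted p 1.21e-16 by limma). PRPH, the peripherin of peripheral neuron intermediate filaments, had 39.2, 34.4 and 38.5 against 1545 to 2496. The smallest PRPH difference was -5.42, and no other of 13 intermediate filament genes was called (7.69% lower, against 1.7% of all genes). PTPRK, a receptor tyrosine phosphatase, had 22.6, 20.8 and 17.5 against 352 to 724, and ZFPM2, a cofactor of GATA factors, 13.7, 17.8 and 19.8 against 273 to 491. DDIT4, which restrains mTORC1 under stress, was lower at 162, 139 and 178 against 2003 to 4234.

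PRUNE2, SPOCK3, CPNE8 and EBF3 filled the remaining places among the 12 lower genes, with smallest differences of -3.73, -3.69, -3.60 and -3.27. EBF3, a transcription factor of neuronal differentiation, had 32.7, 27.4 and 29.7 in SH-SY5Y, below the 294 to 454 of the 9 amplified arrays. That value rests on 1 probe set: with the mean over its probe sets the mean difference was -1.19, without the probe sets marked as able to cross-hybridise it was -0.12, and neither was called. Over the 423 genes, 247 had another probe set above the filter, and in 163 of these at least 1 other probe set had the same sign at 1 or more.

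**Figure D3:**
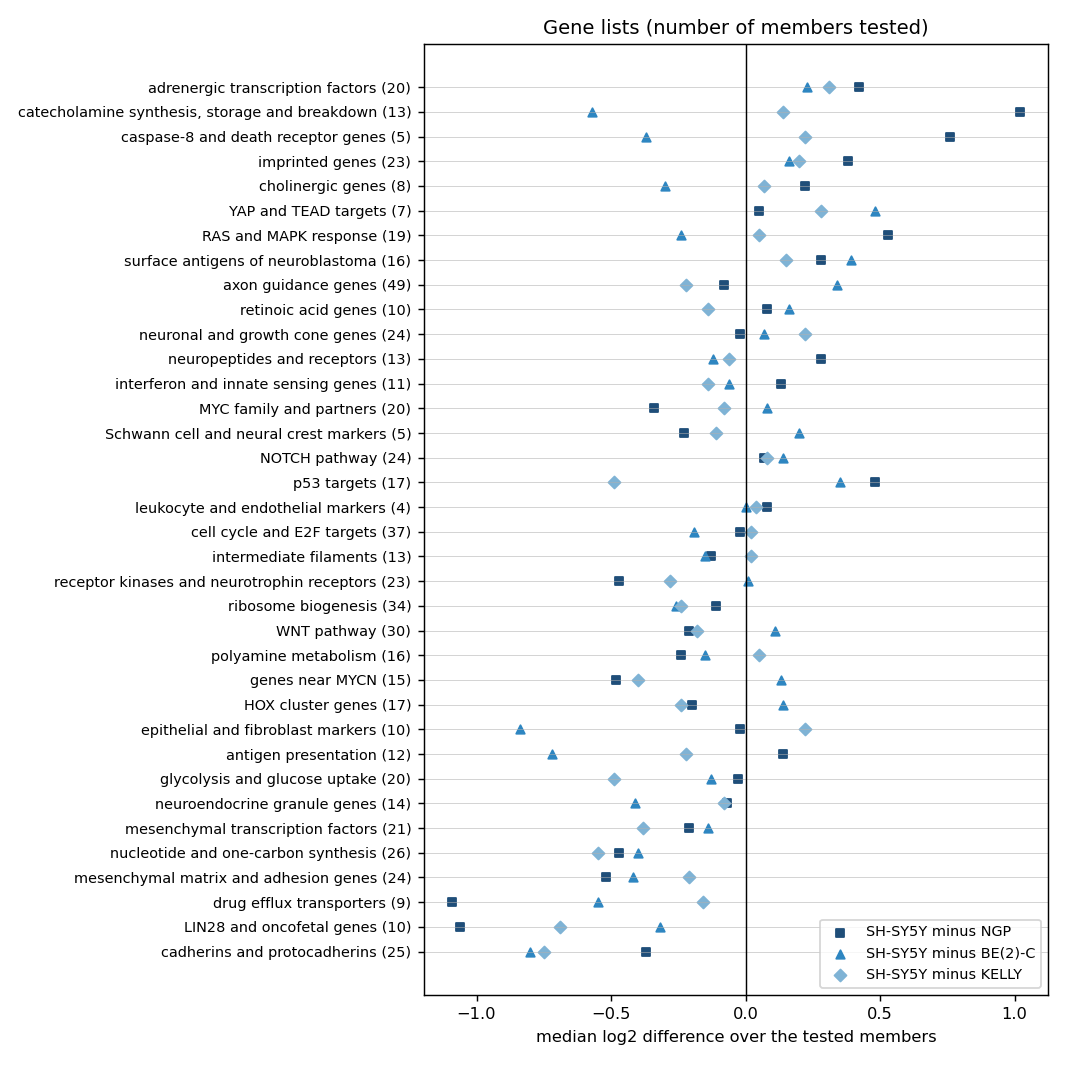
Median log2 difference (horizontal axis) over the tested members of each of 36 gene lists, in each contrast of SH-SY5Y with an amplified line; the number of members tested is in brackets. In the adrenergic transcription factor list all 3 medians are above 0 (0.42, 0.23 and 0.31), in the LIN28 and oncofetal list all 3 are below it (-1.06, -0.32 and -0.69), and the medians of all genes are 0, 0.06 and -0.04.

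Counts for gene lists are over the members tested. Per list 0 to 22 members were not tested, either for want of a usable probe set or because they did not pass the filter on dim genes. A member that passed through 1 side alone was brighter there in at least 1 line, which favours a call without fixing it. The lists were also chosen with earlier results of these data known, so the counts are a description. Over all genes tested 1.89% were called higher and 1.7% lower, and list counts are to be read beside these shares. Among 20 adrenergic transcription factors only LMO3, a LIM-only cofactor, was called (5% higher, against 1.89% of all genes). LMO3 had 772, 696 and 828 in SH-SY5Y against 44.6 to 67.3 in NGP and BE(2)-C and 323 to 344 in KELLY (smallest difference 1.19). The median difference of this list was 0.47, and the LMO3 call was lost on the deposited scale and without the probe sets marked as able to cross-hybridise. On the deposited scale and with ERCC scaling 3 genes of the list were called lower. TWIST1, a helix-loop-helix factor that works with MYCN, was 5373 ± 208 in SH-SY5Y, above the 3232 to 3323 of the amplified lines, a difference of 0.69 to 0.73 that did not reach the fold of 1. Of 21 mesenchymal transcription factors NOTCH2 was called higher (4.76%, against 1.89% of all genes), at 122 ± 8.33 against 47 to 60.1. NOTCH2 was not called on the deposited, ERCC and floored scales, with averaged probe sets or with a pseudocount of 16. Nor was it called without SH-SY5Y replicate 3 or KELLY replicate 2. Among 24 matrix and adhesion genes of mesenchymal cells COL6A1, a collagen VI chain, was lower (4.17%, against 1.7% of all genes). COL6A1 had 692 ± 87.5 against 2243 to 3293, and was not called when its probe sets were averaged. None of 7 YAP and TEAD targets was called, and AMOTL2 and NT5E, their widest members, had differences of 0.09 to 2.09 and -2.56 to 1.09. The values of SK-N-AS for 2 of these genes were 68 ± 6.65 for NOTCH2 and 1875 ± 50.6 for COL6A1.

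In the transmitter systems, no other of 13 catecholamine genes was called than MAOB, the monoamine oxidase that breaks down amines (7.69%, against 1.89% of all genes). MAOB had 205, 183 and 170 in SH-SY5Y, above the 17.3 to 42.1 of the 9 amplified arrays (smallest difference 2.24). The medians of the catecholamine list were 1.02 against NGP, -0.57 against BE(2)-C and 0.14 against KELLY. NMU, the peptide neuromedin U, was higher along with the receptor gene NPFFR2 among 13 neuropeptide genes (15.4%, against 1.89% of all genes). Without the probe sets marked as able to cross-hybridise 1 gene of that list was called higher. NMU had 1619, 1862 and 1431 against 144 to 167 in NGP, 287 to 307 in BE(2)-C and 20.6 to 28.9 in KELLY. None of 14 granule genes, 24 neuronal and growth cone genes or 8 cholinergic genes was called in all 3 contrasts. VGF, a granule peptide precursor, had 2957 ± 267 in SH-SY5Y, near BE(2)-C (2676 ± 88.1) and above NGP and KELLY (718 ± 65.7 and 339 ± 21). ELAVL4, a neuronal RNA-binding protein, was higher by 1.10 than NGP, by 0.95 than BE(2)-C and by 2.02 than KELLY and so fell short in 1 contrast. CHRNA3, a nicotinic receptor subunit, had differences of -0.66 to -0.84.

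Among growth factor receptors genes were called in both directions. ALK, the receptor tyrosine kinase mutated in some neuroblastomas, was higher at 697, 663 and 603 in SH-SY5Y against 219 to 355 in NGP, 144 to 148 in BE(2)-C and 249 to 264 in KELLY. Its smallest difference was 1.17 (SE 0.13, highest adjusted p 7.05e-07 by limma), and the call was lost on the deposited and ERCC scales and without NGP replicate 2. GFRA2, the neurturin co-receptor, was lower, at 25.5, 26.6 and 24.6 against 167 to 1109 (smallest difference -2.75), and FGFR2 was lower by at least 1.46. The FGFR2 call was lost with floored values. These were the 3 called among 23 receptor genes (4.35% higher and 8.7% lower, against 1.89% and 1.7% of all genes). In the RAS and MAPK response, DUSP6, a phosphatase that acts on ERK, was higher (2355, 2444 and 2157 against 368 to 960) and IER3, an immediate early gene, was lower (31.7, 30.8 and 27.7 against 116 to 993). DUSP6 was not called on the deposited and ERCC scales, nor IER3 with floored values or without the probe sets able to cross-hybridise.

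Of 49 axon guidance genes, 3 were higher (6.12%, against 1.89% of all genes) and 4 lower (8.16%, against 1.7%), and the median difference was 0.09. The higher genes were PLXNA4, a plexin receptor (486, 607 and 472 against 22.3 to 85), SEMA3C, a secreted semaphorin (489, 555 and 435 against 21.6 to 101), and SEMA5A (204, 203 and 222 against 41.9 to 95). The lower genes were SEMA6A (139, 147 and 144 against 688 to 1383), NRP1, the neuropilin co-receptor for class 3 semaphorins and VEGF (22, 21.2 and 19 against 80.5 to 451), SEMA3A and PLXND1. SEMA3A, the ligand of NRP1, had 36.7 ± 5.08 against 115 to 384, and PLXND1 had 99.2 ± 4.8 against 290 to 523. The other probe set of NRP1 above the filter did not have the same sign at 1 or more. The NRP1 call was lost with floored values and without the probe sets marked as able to cross-hybridise, and that of SEMA3A with floored values, which left 2 lower genes. On the deposited and ERCC scales SEMA5A was not called and 7 genes of the list were lower; SEMA5A was not called with averaged probe sets either. SEMA5A and the last 2 lower genes stand outside the rule for named genes and were named after their values were seen.

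Of 25 cadherins and protocadherins listed and tested 3 were lower (12%, against 1.7% of all genes) and none higher: PCDHB16 (29.6 ± 0.978 against 193 to 248), PCDHB2 (32.5 ± 1.7 against 116 to 650) and PCDH10 (30.4 ± 5.5 against 73.7 to 115). The median difference of the list was -0.83. With floored values only PCDHB16 was called, and on the deposited scale 6 genes of the list were. Other protocadherins, outside the list and named after their values were seen, were called in both directions: PCDHA2 was lower and PCDHB3 and PCDHB6 were higher. The PCDHB genes are near-identical neighbours on chromosome 5 whose probes may share targets. Among 16 surface antigens of neuroblastoma, CD99, ALK and ST8SIA1 were higher (18.8%, against 1.89% of all genes). ST8SIA1, the GD3 synthase on the path to the ganglioside GD2, had 106, 128 and 147 in SH-SY5Y against 8.39 to 26.9, and was not called with floored values. The chemokine receptor CXCR4 and its ligand CXCL12, singled out after their values were seen, moved in opposite directions. CXCR4 had 1567, 1433 and 1678 against 506 to 518 in NGP and 51.6 to 89.9 in the other lines, and CXCL12 had 16.6, 22.3 and 19 against 101 to 204. The CXCL12 call was lost with floored values and without the probe sets able to cross-hybridise.

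Of 23 imprinted genes tested, 5 were higher in SH-SY5Y (21.7%, against 1.89% of all genes) and none lower. NNAT, described above, led them. The list was chosen with earlier results of these data known, so its share is no independent evidence. PLAGL1, a zinc finger growth suppressor, had 119, 140 and 116 against 10.8 to 20.6 (smallest difference 2.68), TFPI2, a protease inhibitor, 408, 454 and 367 against 20.1 to 64.9, and CDKN1C, also called p57, 698, 851 and 703 against 18.9 to 33.2 in NGP and BE(2)-C and 186 to 205 in KELLY. KCNQ1, a potassium channel outside the rule for named genes, had 185 ± 6.31 against 67.2 to 83.7. The median difference over the 23 was 0.18. PLAGL1 lay below the filter in the amplified arrays and so entered the count through SH-SY5Y alone, and its call was lost with floored values. KCNQ1 was not called on the deposited and ERCC scales, on each of which 4 of the 23 genes were called higher. The count was 3 without the probe sets marked as able to cross-hybridise and 3 with the stricter filter. In SK-N-AS, TFPI2 was 4714 ± 234 and PLAGL1 125 ± 7.73.

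Other lists gave few genes, to be read beside 1.89% higher and 1.7% lower over all genes. HOXC8, a posterior homeobox gene, was lower at 35.3, 40.4 and 35.3 against 299 to 556 (smallest difference -3.13). No other of 17 HOX genes was called (5.88% lower). SOX2, a neural progenitor factor, was lower at 39, 33.3 and 33.6 against 123 to 161. No other of 5 Schwann cell and neural crest genes was called (20% lower), and none of 4 leukocyte and endothelial or 10 epithelial and fibroblast genes was called. The WNT antagonist SFRP1 was lower by at least 1.04, 1 of 30 WNT genes (3.33%). The retinol dehydrogenase RDH10 was lower by at least 1.14, with NRIP1 2 of 10 retinoic acid genes (20%). The NOTCH coactivator MAML2 was lower by at least 1.60 and NOTCH2 was higher, 2 of 24 NOTCH genes (4.17% in each direction). The TNF receptor TNFRSF1A was lower by at least 1.55, 1 of 5 death receptor genes (20%). Of 16 genes of polyamine metabolism PAOX, an oxidase, was higher by at least 1.35 (6.25%). SAT1, the acetyltransferase that starts polyamine breakdown, was lower by at least 1.04 (6.25%). ABCB4, a phospholipid transporter, was higher by at least 1.87, the only one of 9 drug efflux transporters called (11.1%, against 1.89% of all genes), while the medians of that list were -1.09, -0.55 and -0.16. With floored values SOX2, RDH10, MAML2, TNFRSF1A, PAOX, SAT1 and ABCB4 lost their calls. Averaged probe sets ended those of SFRP1, RDH10, MAML2, TNFRSF1A, PAOX and SAT1, and PAOX was not called on the deposited and ERCC scales. SOX2 was not called with averaged probe sets either, nor TNFRSF1A without the probe sets able to cross-hybridise. SFRP1 and SAT1 also lost their calls with a pseudocount of 16 and without the probe sets able to cross-hybridise. They depended on single arrays, SFRP1 on KELLY replicate 1 and SAT1 on SH-SY5Y replicate 3. None of 12 antigen presentation or 20 glycolysis genes was called. TAP2, a peptide transporter, had differences of -0.66 to 1.95, B2M -0.28 to -1.43 and GPI, a glycolytic enzyme, -0.80 to -1.14, while LDHA, lactate dehydrogenase A, stood at 7723 ± 130 in SH-SY5Y, 7835 ± 310 in NGP, 7828 ± 203 in KELLY and 584 ± 9.86 in BE(2)-C. CASP8, the initiator caspase often silenced in neuroblastoma, did not pass the filter. PIWIL1, a germline argonaute from a list of 4 tested genes drawn up later, was higher (25%, against 1.89% of all genes). PIWIL1 had 187, 267 and 183 against 12.4, 8.97 and 20.5 as means of NGP, BE(2)-C and KELLY.

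Several of the lower genes are known targets of ATF4. ATF4 is the transcription factor of the integrated stress response, made when amino acids run short, and its targets include amino acid transporters, aminoacyl-tRNA synthetases and enzymes of serine and asparagine synthesis. A list of such targets was drawn up after the values were seen, and 9 of its 36 tested members were lower (25%, against 1.7% of all genes) and none higher. The count was 23 on the deposited scale, 19 with ERCC scaling and 17 with NGP left out. The median difference was -1.16, with -0.91 against NGP, -1.13 against BE(2)-C and -1.43 against KELLY. Being chosen on these arrays, the list is no independent evidence of its direction.

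ATF4 itself had 3269, 3291 and 3484 in SH-SY5Y, 6996, 6512 and 6655 in NGP, 7178, 7142 and 6704 in BE(2)-C and 10040, 10220 and 10500 in KELLY. The 2 groups did not overlap, but the smallest difference was -1.005 (SE 0.047, highest adjusted p 4.99e-11 by limma), at the edge of the rule, and ATF4 was not called after quantile normalization or without SH-SY5Y replicate 1, SH-SY5Y replicate 2 or NGP replicate 1. Among the listed targets some differed more and some less than ATF4. SLC7A11, the cystine and glutamate exchanger, had 45.1, 41.1 and 58.3 against 304 to 338 in NGP, 489 to 577 in BE(2)-C and 1306 to 1473 in KELLY. CEBPB, a bZIP partner of ATF4, had 173, 202 and 229 against 1229 to 1489, a nearly equal gap in all 3 contrasts (-2.70, -2.69 and -2.76). INHBE, an inhibin subunit, had 26.3, 21.3 and 25.5 against 237 to 607, and STC2, the secreted stanniocalcin 2, 52.7, 48.3 and 50.7 against 200 to 391. SLC7A5, the transporter of large neutral amino acids, had 198, 218 and 268 against 604 to 1074. The synthetases AARS1 and SARS1 were lower by at least 1.26 and 1.21. ASNS, asparagine synthetase, missed the rule in 1 contrast, with -0.88 against NGP, -1.14 against BE(2)-C and -1.69 against KELLY, as did PHGDH, SESN2 and CHAC1. In SK-N-AS the levels were 7101 ± 297 for ATF4, 2098 ± 107 for CEBPB and 627 ± 73.2 for SLC7A11.

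**Figure D4:**
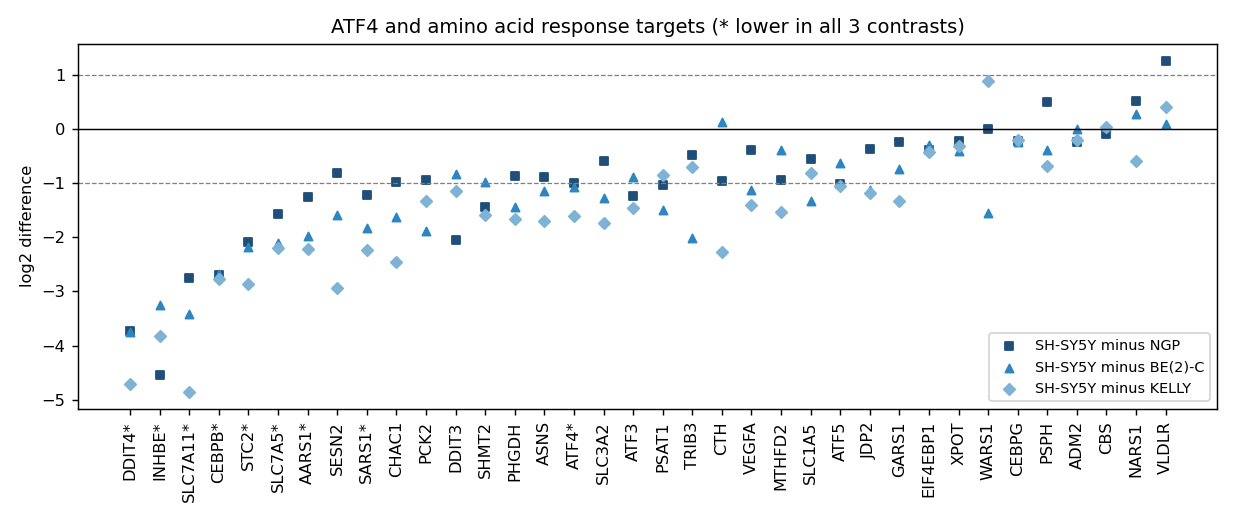
Log2 difference of SH-SY5Y from each amplified line (vertical axis) for the 36 tested ATF4 and amino acid response targets, ordered by their mean difference; dashed lines mark -1 and 1. The 9 genes marked with an asterisk lie at or below -1 in all 3 contrasts, from DDIT4 (-3.73 to -4.71) to ATF4 (-1.005 to -1.61).

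The promoters of the separating genes were searched from 250 bases before to 50 bases after the RefSeq start site (GRCh38.p14) for 2 motifs on both strands, the E-box CACGTG that MYC proteins bind and TGATGNAA, the core of the amino acid response element that ATF4 and its partners bind. Matches of the 2 motifs can share at most 2 letters. Of the 11788 genes tested 9726 had a promoter sequence. The E-box stood in 10.2% of all of these promoters, in 13.5% of those of the lower genes (21 of 155) and in 6.25% of those of the higher genes (11 of 176). The response element stood in 1.67% of all, in 5.81% of the lower (9 of 155) and in 2.27% of the higher (4 of 176). It stood in 6 of the 30 promoters of the ATF4 list (20%). Of the 7 promoters of list members called lower, only 1 held it, that of AARS1 (14.3%), and 2 held an E-box (28.6%). These are counts of letters and do not show binding. The stretches around the motif, in capitals, are shown for 5 lower genes that bear on amino acid supply or stress, 2 with the E-box and 3 with the response element in either orientation. They are written along the strand of the gene. They lie upstream of the annotated start sites.
ATF4, chr22:39520452-39520507, plus strand: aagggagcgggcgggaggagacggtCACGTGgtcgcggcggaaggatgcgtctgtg
SLC7A5, chr16:87869607-87869662, minus strand: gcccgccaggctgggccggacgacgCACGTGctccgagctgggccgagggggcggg
AARS1, chr16:70289661-70289718, minus strand: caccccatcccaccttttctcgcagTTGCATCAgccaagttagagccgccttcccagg
BCAT1, chr12:24949117-24949174, minus strand: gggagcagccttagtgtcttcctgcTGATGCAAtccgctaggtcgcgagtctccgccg
HERPUD1, chr16:56931941-56931998, plus strand: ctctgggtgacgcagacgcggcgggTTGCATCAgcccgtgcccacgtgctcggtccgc

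BCAT1 and HERPUD1 are on no list and were singled out after their values were seen. BCAT1, the cytosolic transaminase of branched-chain amino acids, had 1621 ± 104 in SH-SY5Y against 3758 to 4872 in the amplified lines (smallest difference -1.21), and was not called with averaged probe sets. HERPUD1, a stress-induced protein of the endoplasmic reticulum, had 356 ± 32.7 against 1383 to 1864 (-1.96), and its printed stretch also holds an E-box in lower case. CpG counts per promoter were alike, with a median of 27 over all genes, 28 in the higher and 26 in the lower genes.

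ATF4 also belongs to a run of neighbouring genes on chromosome 22 that were lower together. On this chromosome 17 of 296 tested genes were lower than in all 3 amplified lines (5.74%, against 1.7% of all genes) and 1 was higher. A running median over 15 neighbouring genes, a search added after the values were seen, lay at or below -0.5 in all 3 contrasts over 43 tested genes from MGAT3 to TSPO. In this block 12 genes were called lower (27.9%): ATF4, ADSL, SLC25A17, ST13, DESI1, CENPM, SMDT1, NDUFA6, RRP7A, POLDIP3, ARFGAP3 and PACSIN2. The count was 22 on the deposited scale, 18 with ERCC scaling, 7 after quantile normalization, 6 of 40 with averaged probe sets and 4 of 35 without the probe sets able to cross-hybridise, and 8 without SH-SY5Y replicate 1 and 9 to 12 without any other array. Of the 12, ATF4, SLC25A17, DESI1, POLDIP3 and PACSIN2 were those not called after quantile normalization. The block's medians were -0.73 against NGP, -1.01 against BE(2)-C and -0.90 against KELLY, and 36 of the 43 genes were lower than in all 3 lines by any amount, against 22.4% of all genes. Since the block was picked for low values, these figures describe it and test nothing.

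The called genes of the block have unrelated functions. NDUFA6, a subunit of respiratory complex I, had 1024, 979 and 893 in SH-SY5Y, 3067 to 3138 in NGP, 4970 to 5078 in BE(2)-C and 2744 to 3136 in KELLY (smallest difference -1.61). CENPM, a centromere protein, had 298, 285 and 316 against 675 to 868. SMDT1, a regulator of the mitochondrial calcium uniporter, had 758 ± 37.4 against 1923 to 2348, and ST13, an HSP70 co-chaperone, 569 ± 23.7 against 1375 to 1858. The differences of these 4 genes all lay between -1.18 and -2.38. Against SK-N-AS the median of the block was -0.06, beside 0.09 for all genes. The median difference from the mean of the amplified lines was -0.94, with an SD of 0.109 over the 3 SH-SY5Y arrays. Copy number was not measured here.

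**Figure D5:**
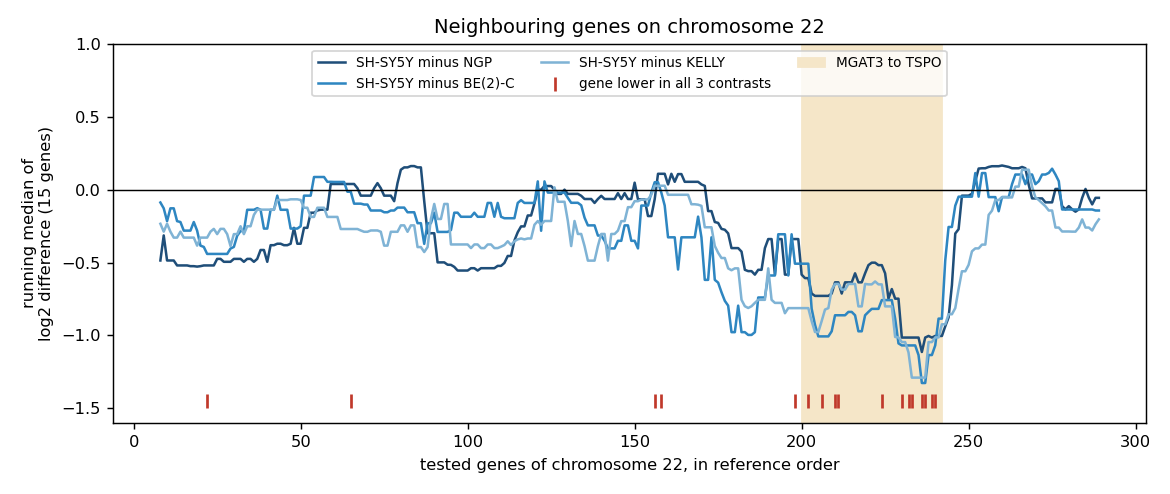
Running median over 15 neighbouring genes of the log2 difference (vertical axis) along the tested genes of chromosome 22 in reference order (horizontal axis), for each contrast; red ticks mark genes lower in all 3 contrasts and the shaded band the block from MGAT3 to TSPO. The 3 lines dip together in the band, which holds 12 of the 17 ticks.

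The same search found 4 other stretches: 6 genes from TOMM22 to NPTXR just before the block on chromosome 22 with none called, 9 genes from GEMIN2 to PRPF39 on chromosome 14 that were all lower than in the 3 lines (medians -0.67, -0.72 and -0.82) with GEMIN2 called, and 13 and 6 genes on chromosome 7, from MBLAC1 to NYAP1 and from SH2B2 to POLR2J, that lay higher with none called. On chromosome 7 as a whole 22 of 569 genes were higher (3.87%, against 1.89%), with medians of 0.36, 0.21 and 0.11.

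How many genes lay on each side depended on how the arrays were scaled. Left on the deposited scale, where the median gene of SH-SY5Y was 0.52, 1.08 and 0.24 log2 units below NGP, BE(2)-C and KELLY, 90 genes were higher and 638 lower, so that 12.4% of the separating genes were higher in place of 52.7%. With arrays set to equal ERCC medians the numbers were 103 and 490 (17.4% higher). With the stricter filter on dim genes 38.5% were higher. The 200 lower genes were all called on the deposited and ERCC scales too, whereas 90 and 103 of the 223 higher genes were. Both scales lower SH-SY5Y against each amplified line by the same amount for every gene. A lower gene therefore keeps its fold of 1 and a higher gene can only lose it, so this does not show which side is firmer. All directions above are relative to the median gene of each array.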

How the data were processed

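Total RNA of 5 neuroblastoma lines was hybridised to Affymetrix arrays, 3 arrays per line. The authors deposited a table of linear intensities for 49494 probe sets, and the submitters' processing notes name MAS5, with no version and no role; how background, scaling and summary were set is not given in the sources used here. MAS5 values of dim probe sets carry much background, and the number of arrays limits the precision.

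Intensities were taken as log2(value + 1), then centred per array by subtracting the median of the tested genes. Probe sets with 1 gene symbol (45277) were used, 1333 with several and 2682 with none were not, and gene symbols came from GEO's platform annotation. Of a gene's probe sets the one with the highest mean over 15 arrays stood for it. This gave 18216 genes, of which 11779 of the 11788 tested matched RefSeq (GRCh38.p14). Genes of X inactivation and of the Y chromosome (69 probe sets) were left out. Genes were tested when the highest of the 4 line means reached the array median over all probe sets.

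limma 3.58.1 in R 4.3.3 fitted 1 mean per line to the 12 arrays with an intensity-dependent variance prior, and p-values were adjusted by Benjamini-Hochberg over all genes. A gene was called at an adjusted p below 0.05 and a log2 difference of at least 1. In simulated data, with 200 of 11788 genes changed, 96% of genes changed by 1.2 log2 units were recovered in all 3 contrasts. Of those changed by 1.4, 2 or 3, 100% were, with 0 unchanged genes called. Unchanged genes had the same mean in all simulated lines and differed by array spread alone. The 0 was therefore fixed by the setting and does not measure false calls among lines that differ as these do.

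Named genes were the 12 higher and 12 lower with the largest smallest difference, up to 4 separating members of each gene list (or, with none, its 2 members with the largest mean difference), the 3 genes on each side of the fold of 1, and MYCN, MYC, MYCL, TWIST1, LIN28B, CDK4, MDM2 and CASP8; others are marked in the text. The members and lists were chosen with earlier results of these data known. The filter differs from one on deposited values, which the dimmer SH-SY5Y arrays would have made one-sided; that filter was added as an alternative. The alternatives covered scale, probe set choice, filter, pseudocount, floor, the arrays in the fit, the variance prior, a replicate block, line means as replicates, and leaving out lines and arrays. Same-numbered arrays of different lines did not deviate together (correlations of -0.269 to 0.265 over 18 pairs), so the numbers were not taken to pair them.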

Additional observations from a re-analysis of the deposited data

How the results depend on the processing

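The 223 higher and 200 lower genes became 90 and 638 on the deposited scale and 103 and 490 with equal ERCC medians. The higher count was 106 with the stricter filter and 143 with floored values. Leaving out an amplified line, which removes 1 required contrast, gave 397 and 358 without NGP, 437 and 421 without BE(2)-C and 422 and 301 without KELLY. With line means as replicates, 1 against 3, limma called 0 higher and 0 lower, with 519 genes at an unadjusted p below 0.05 and a lowest adjusted p of 0.114. In single contrasts the deposited scale gave 543 higher and 2364 lower against NGP and 325 and 6594 against BE(2)-C, and ERCC scaling 629 and 1862, and 373 and 5371. The stricter filter gave 640, 705 and 569 higher against NGP, BE(2)-C and KELLY, and no filter 1344 lower against BE(2)-C. Leaving out 1 array gave 216 to 230 separating genes higher and 194 to 207 lower; against NGP 1088 to 1123 higher and 951 to 980 lower, against BE(2)-C 1184 to 1226 and 885 to 917, and against KELLY 941 to 983 and 907 to 931. The ERCC-relative difference stayed between -0.53 and -0.49, and was -0.52 over all 100 ERCC probe sets. With the replicate number as a block the counts were 223 and 200, so the block changed no count. The filter on deposited values, chosen after seeing the data, gave 187 and 200. For the ATF4 list 23 genes were lower on the deposited scale, 19 with ERCC scaling and 17 without NGP, and 8 to 13 under the other alternatives. The chromosome 22 block had a median of -1.56 on the deposited scale, -1.44 with ERCC scaling and -1 to -0.83 under the others. The larger side of the separating genes turned from higher to lower on the deposited and ERCC scales, with the stricter filter, with floored values (143 and 146) and with the filter on deposited values, as it did in each single contrast on the deposited and ERCC scales, while no named gene called under the main or an alternative setting changed sign. Causes of these shifts were not tested, beyond fewer required contrasts when a line was left out and the equal shift of all genes on the deposited and ERCC scales.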
